A study of Mus musculus with 24 samples.

Results

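The genes described here encode the proteins of the cytosolic ribosome. They were taken from the deposited count table as every row whose gene identifier maps to a symbol beginning with Rpl or Rps and a digit, or to Rplp0, Rplp1, Rplp2 or Rpsa, leaving out the Rps6k kinases, Rps19bp1, Rps27l and pseudogene symbols that contain -ps. This gave 89 genes of 27179 rows, and 45 rows with similar symbols were left out, of which 33 contain -ps. Of the 89, 77 are the genes usually named for a ribosomal protein (46 of the large subunit, stalk included, and 31 of the small subunit), and 12 are copies or paralogues of another member. The symbol rule does not reach some genes whose products also sit in the ribosome, such as Fau and Rack1.

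The libraries came from 3 populations sorted from the bone marrow of 8 mice. They are the haematopoietic stem cells, written HSC here, the multipotent progenitors, written MPP, and progenitors named HPC-1. Each population was taken from 4 mice labelled deleted for Phf6 and from 4 mice labelled intact, called control below, with 1 mouse of each kind in each of 4 litters. Both groups carry the same strain label, Phf6lox/Y;Tie2-creTg/+, a floxed X-linked Phf6 allele and a Cre driven by Tie2 in blood and endothelial cells, so the labels do not say how the intact mice kept the gene. No age is given. HSC and MPP libraries were made with SMART-Seq amplification and HPC-1 libraries with a TruSeq kit, so the kit and the population cannot be told apart where HPC-1 is concerned, and levels are compared between HSC and MPP only.

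Each cytosolic ribosome joins a small subunit, which reads the mRNA, to a large subunit, which forms the peptide bond. The proteins' mRNAs begin with a run of pyrimidines, the 5′ terminal oligopyrimidine (TOP) tract, through which translation of the whole family is set by mTOR and the RNA-binding protein Larp1. Blood formation is sensitive to their dose: reduced function of many of them causes Diamond-Blackfan anaemia in humans, and free Rpl5 and Rpl11 bind Mdm2 and stabilise p53. Blood stem cells are known for a low rate of protein synthesis.

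The family also has many processed copies in the genome, and this may bear on the values below. The coding sequence of Rps27rt, a retrotransposed copy on chromosome 9 (114982366 to 114982739, GRCm38), and that of Rps27 on chromosome 3 (90212667 to 90213648) are the same over all 255 bases in the GENCODE vM21 transcripts. The sequence is printed once, with no base in capitals because none differs, to show that a read from inside it could come from either gene.

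Rps27rt and Rps27: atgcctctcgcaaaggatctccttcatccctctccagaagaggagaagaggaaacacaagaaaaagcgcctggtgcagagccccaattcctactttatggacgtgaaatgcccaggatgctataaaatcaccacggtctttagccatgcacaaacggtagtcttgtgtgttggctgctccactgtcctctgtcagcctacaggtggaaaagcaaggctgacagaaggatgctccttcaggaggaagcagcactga

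The annotated transcript of Rpl37rt on chromosome 5 and the coding sequence of Rpl37 on chromosome 15 are both 294 bases long and differ at 1 base. It is G249A, counted from the A of the start codon with the base of Rpl37 first, and stands in capitals in this stretch from base 224.
Rpl37rt: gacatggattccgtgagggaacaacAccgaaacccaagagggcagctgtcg
Rpl37: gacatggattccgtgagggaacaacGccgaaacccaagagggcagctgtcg

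The starts of 3 genes that recur below, Rpl15, Rpl18 and Rpl5, are shown from 30 bases before to 20 bases after the RefSeq start (GRCm38.p6), because the TOP tract is the feature the family's mRNAs are known for. Capitals mark CTTTCC or CTTTCT on the gene's strand. In Rpl5 they lie before the start used, so outside an mRNA that begins there. They lie inside the annotated gene range of Rpl5, just after its first base. For Rpl18 and Rpl5 the start used lies inside the annotated gene range, whose first bases are 45715467 and 107900508.
Rpl15, chr14:18270967-18271016, minus strand: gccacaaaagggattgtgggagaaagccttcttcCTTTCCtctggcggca
Rpl18, chr7:45718041-45718090, plus strand: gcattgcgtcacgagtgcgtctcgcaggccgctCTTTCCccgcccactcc
Rpl5, chr5:107900498-107900547, plus strand: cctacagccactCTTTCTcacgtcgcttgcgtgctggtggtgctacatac

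RefSeq windows were matched for 67 of the 89 genes. CTTTCC lay on the gene's strand between these bounds in 12 of the 67 (17.9%), against 2.88% of all 27025 genes with a window, and on either strand in 19.4% against 5.3%. CTTTCT was found on the gene's strand in 8.96%, against 3.11% of all genes. CTCTTT was found on the gene's strand in 14.9%, against 2.35% of all genes, and CTTTTC in 8.96%, against 2.14%. In the wider window from 250 before to 50 after the start, CCGGAAG, a core that ETS-family factors recognise, was found on either strand in 37.3% of the 67 genes, against 9.93% of all genes, and the palindrome TCTCGCGA in 16.4%, against 1.13%. CTCTTT can overlap the other 3 short motifs, and a match is a description of the letters, not of a binding site or a TOP tract.

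Total counts ran from 9658167 to 27786830 per library, and 14212 to 16479 genes had a count. Within each population the deleted libraries all had less Phf6 than the control ones, at 36.9 to 79.8 CPM in HSC of deleted mice against 183 to 241 CPM in HSC of control mice. CPM are counts brought to a library total of 1000000, the total being scaled by edgeR's TMM factors, with 1 scaling for the 16 HSC and MPP libraries and another for HPC-1. Among sorting markers Slamf1, which encodes CD150, averaged 1.24 ± 1.55 CPM in MPP and 36.4 ± 19.2 CPM in HSC of deleted mice, and 1.89 ± 0.619 CPM in MPP and 67.7 ± 14.2 CPM in HSC of control mice (SD, n = 4 each). Flt3, a progenitor receptor, averaged 445 ± 12.4 CPM in MPP and 43.6 ± 14.4 CPM in HSC of control mice. Other markers did not part control MPP and HSC in this way. Procr, listed as an HSC marker, averaged 162 ± 19.7 CPM in MPP and 92.5 ± 21.8 CPM in HSC. Cd48 averaged 27.8 ± 16.9 CPM in MPP and 14.9 ± 9.67 CPM in HSC, with overlap. The sum of 10 HSC markers, Slamf1 and Procr included, was 987 to 1383 CPM in MPP and 894 to 1048 CPM in HSC. The summed level of 12 neutrophil and monocyte markers varied widely between libraries, from 210 to 13430 CPM in HSC and MPP, and the mitochondrially encoded genes held 1.29% to 4.58% of the counts. The labels give separate mice for the 4 libraries of a group, so the p-values below measure the spread between mice.

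The 89 genes together held a small part of each library. In MPP the share was 0.824%, 0.723%, 0.993% and 0.682% in deleted mice of litters 1 to 4, against 0.817%, 0.927%, 0.589% and 0.951% in control mice. In HSC it was 1.07%, 0.691%, 1.13% and 0.685% in deleted mice, against 0.889%, 1.07%, 0.887% and 1.19% in control mice. The deleted HSC libraries of litters 2 and 4 lay below all control HSC libraries, while those of litters 1 and 3 lay among them. In HPC-1 the share was 2.15%, 1.94%, 2.10% and 2.24% in deleted mice, against 2.02%, 2.01%, 2.03% and 2.36% in control mice, and these ranges overlapped. The 95% Wilson interval of a share was at most 0.0137 percentage points wide, far less than the spread between mice, and covers counting error only. Averaged over mice the share was 0.895 ± 0.240% in deleted and 1.01 ± 0.149% in control HSC, 0.805 ± 0.138% in deleted and 0.821 ± 0.166% in control MPP, and 2.11 ± 0.124% in deleted and 2.11 ± 0.172% in control HPC-1 (SD, n = 4 each). In control mice the share was lower in MPP than in HSC of the same mouse in 4 of 4 mice. In such bulk libraries, fewer cells of a type and less of this RNA per cell cannot be told apart.

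**Figure D1:**
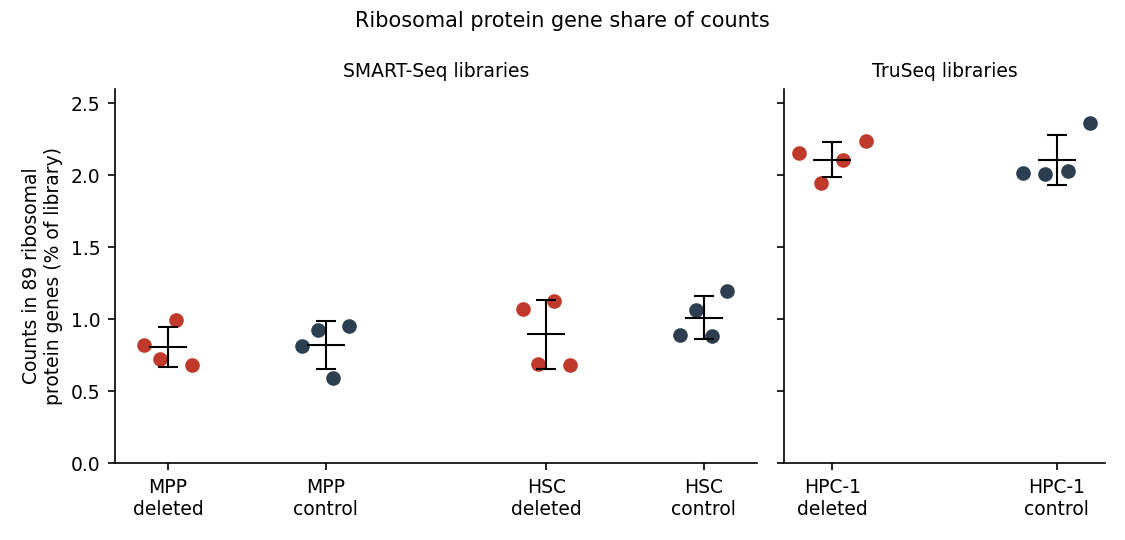
Percent of each library's counts in the 89 ribosomal protein genes (vertical axis), for MPP and HSC (left, SMART-Seq) and HPC-1 (right, TruSeq). Points are mice, with the mean ± SD of 4. The HSC and MPP points lie between 0.589% and 1.19% with deleted and control mice overlapping in each population.

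Levels differed widely between members. Per kilobase of the deposited gene length, the high means over HSC and MPP control libraries included those of Rpl41, the smallest ribosomal protein (564 CPM per kb), Rps14 (539 CPM per kb), Rpl32 (535 CPM per kb) and Rpl4 (465 CPM per kb). Among members that passed the expression filter, the lowest were Rps23rg1 (4.11 CPM per kb), Rpl39 (4.69 CPM per kb), Rpl28 (10.8 CPM per kb), Rpl23a (11.0 CPM per kb) and Rps12 (12.8 CPM per kb). The proteins of Rpl39, Rpl28, Rpl23a and Rps12 are standard parts of the ribosome, like that of Rpl4, whereas Rps23rg1 is a copy of Rps23.

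Levels were lower for genes with more sequence that also occurs elsewhere. For each gene, all 80-base windows of 1 transcript, the length of a read, were searched in the transcripts of all other GENCODE vM21 genes. Over the 77 genes the Spearman correlation between the share of windows found in another gene and the level per kb was -0.48 in HSC and MPP controls and -0.46 in HPC-1 controls, given as a description across genes of the same libraries. With the transcript chosen by length alone, an alternative added after the data were seen, it was -0.51 in HSC and MPP and -0.45 in HPC-1. The 19 genes with at least 70% of windows shared had a median of 35.7 CPM per kb, and the 10 genes with under 10% shared a median of 239 CPM per kb (ranges 11.0 to 391 and 4.69 to 535 CPM per kb). Rps3, of the small subunit, had no shared window. Exceptions stood on both sides: Rpl39 had 5.8% of windows shared and was among the lowest, whereas Rps27rt had 90.2% shared and 298 CPM per kb. Rps15a, with 3.9% shared and a deposited length of 5136 bases, also lay below the median of the 19 genes. The transcripts searched for Rpl39 (612 bases) and Rps20 (3706 bases, 6.4% shared) are longer than the deposited gene lengths of 394 and 502 bases. Their low shares therefore include bases outside those lengths. How the authors' counting treated reads that fit several places is not given in the sources used here, so the part of shared sequence in these levels was not tested.

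**Figure D2:**
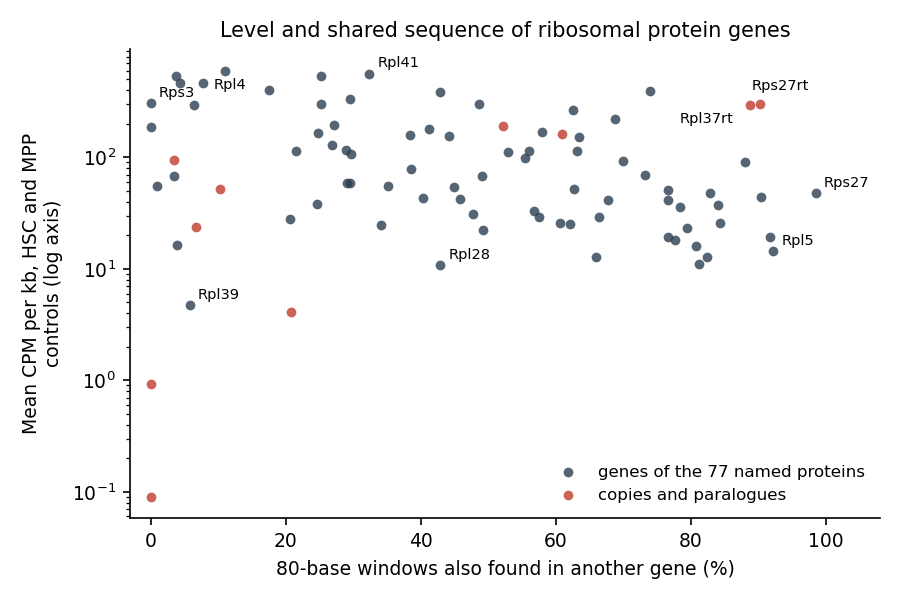
Mean level per kb in the 8 HSC and MPP control libraries (vertical log axis, CPM per kb) against the percent of 80-base windows also found in another gene (horizontal axis). Each point is a gene, 77 named for a ribosomal protein and the copies or paralogues with a window and a count (all but Rpl6l and Rpl10l). Some genes with few shared windows, such as Rps3 and Rpl4, lie high, while Rpl39 at 5.8% and Rps15a at 3.9% lie lower.

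Of the 12 copies and paralogues, Rps27rt, Rpl37rt and Rpl36al held more counts than the genes they are paired with, in all groups. In group means the same held for Rpl7l1 in HSC and MPP, and for Rpl6l and Rps23rg1 in HPC-1. Rps27rt took 80.8 ± 2.08% of the counts of the pair with Rps27 in deleted HSC and 80.0 ± 4.33% in control HSC, and 79.4 ± 2.27% in deleted MPP and 80.2 ± 4.16% in control MPP (SD, n = 4 each). In HPC-1 it took 96.5 ± 0.335% in deleted mice and 95.4 ± 0.881% in control mice. Rpl37rt took 83.2% to 85.7% of the counts with Rpl37 as means of the HSC and MPP groups. Given the sequences printed above, the split of these pairs is uncertain.

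The other copies varied widely in the part they took. Rpl32l had 9.53% to 10.8% of the counts with Rpl32 as means of the HSC and MPP groups, and Rpl6l, annotated as a pseudogene, 33.1% to 37.8% of those with Rpl6. Rpl36al held 81.9 ± 6.50% of the counts with Rpl36a in deleted MPP and 86.1 ± 0.914% in control MPP, and 87.1 ± 2.19% in deleted HSC and 87.4 ± 1.64% in control HSC, where the group means exceed those of Rps27rt and Rpl37rt. Rps23rg1 lay at 35.0 ± 4.45% in deleted MPP and 37.9 ± 4.97% in control MPP of the counts with Rps23. Rpl7l1, a nucleolar relative of Rpl7 whose windows were 3.4% shared, held 57.3 ± 7.84% in deleted MPP and 64.4 ± 5.31% in control MPP. Rps4l, annotated as a transcribed pseudogene related to the X-linked Rps4x, had 24.9 ± 6.67% in deleted MPP, 21.4 ± 1.71% in control MPP, 32.9 ± 9.52% in deleted HSC and 30.3 ± 5.21% in control HSC. The ranges of deleted and control MPP overlapped for each of these pairs.

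Rpl22l1, a paralogue of Rpl22 that Rpl22 is known to repress in mice, was at 121, 87.4, 80.9 and 53.6 CPM in HSC of deleted mice 1 to 4, against 197, 74.0, 60.6 and 74.4 CPM in HSC of control mice. Control mouse 1 was apart from the others, and in MPP the same mouse again had the highest control value, at 136 CPM, against 54.3 to 77.8 CPM in the other control mice. Its HSC library also had the highest sum of 7 endothelial and stromal markers, at 277.5 CPM, against 36.3 to 76.5 CPM in the other HSC libraries, whose part was not tested. Rpl22 itself was at 121, 115, 165 and 66.9 CPM in HSC of deleted mice, against 126, 128, 109 and 107 CPM in HSC of control mice. The 2 groups overlapped for both genes.

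The tissue-restricted paralogues were near or at 0. Rpl10l, a testis paralogue of Rpl10, had no count in 24 of 24 libraries, where 3 counts would be 0.108 to 0.311 CPM. Rpl3l, the paralogue of striated muscle, had 24 counts in all in HSC of deleted mice and 0 in HSC of control mice, and at most 53 counts in any library. Rpl39l, another testis paralogue, had 62 counts in deleted and 34 in control HSC, 35 in deleted and 43 in control MPP, and 0 in deleted and 3 in control HPC-1. These 3 genes did not pass the filter in the HSC and MPP comparisons of 2 groups, and Rpl10l and Rpl39l did not pass in HPC-1. The filter asks for about 10 counts in as many libraries as the smaller group holds, and 15 in total. It left 86 members to test in HSC and MPP and 87 in HPC-1.

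Single libraries moved much of the family at once. Of 84 members with a mean of at least 10 CPM over all libraries, 56 were highest of the 8 MPP libraries in deleted mouse 3. There 35.4% of all genes with a mean of at least 10 CPM over the 8 MPP libraries were highest. The share of all genes beside such counts below uses the same bound over the 8 libraries compared. The shift was uneven: 23 members lay more than 1 log2 unit above the mean of the 8 MPP libraries, and the SD over members was 0.60. The same library had 4.58% of counts in mitochondrially encoded genes, the most of all 24, and 9.34% in its 10 most abundant genes. Rpl23, a large-subunit protein that also binds Mdm2, was at 150, 132, 718 and 161 CPM in MPP of deleted mice 1 to 4, against 122, 113, 162 and 126 CPM in MPP of control mice. Rps13 was at 25.9, 18.1, 123 and 16.7 CPM in MPP of deleted mice, against 23.3, 17.2, 15.7 and 17.6 CPM in MPP of control mice. Rpl27a was at 27.0, 29.5, 99.9 and 30.1 CPM in MPP of deleted mice, against 25.3, 21.7, 27.7 and 26.9 CPM in MPP of control mice. For each of these 3 genes deleted mouse 3 alone stood high. In the same library Rpl13, Rpl10a, Rpl7l1 and Rplp0 lay below the mean of the 8, by -0.23, -0.20, -0.14 and -0.09 on the log2 scale.

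Other libraries were low or high for most members. In control MPP mouse 3, 61 of 84 members were lowest of the 8 MPP libraries (8.5% of all genes), and in deleted HSC mouse 4, 52 of 84 were lowest of the 8 HSC libraries (20.1% of all genes). In control HPC-1 mouse 4, 57 of 84 were highest of the 8 (17.3% of all genes). Neutrophil and monocyte markers summed to 210 CPM in control MPP mouse 3, the lowest of the HSC and MPP libraries, and to 10630 CPM in deleted HSC mouse 4, the highest of the HSC libraries. Their part in the ribosomal protein values was not tested. The median coefficient of variation of members at 10 CPM or more was 33.3% in deleted HSC (25.4% over all genes) and 18.5% in control HSC (16.7%). It was 31.1% in deleted MPP (26.6%) and 20.6% in control MPP (14.96%). In HPC-1 it was 11.3% in deleted mice (11.2%) and 16.04% in control mice (12.5%).

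**Figure D3:**
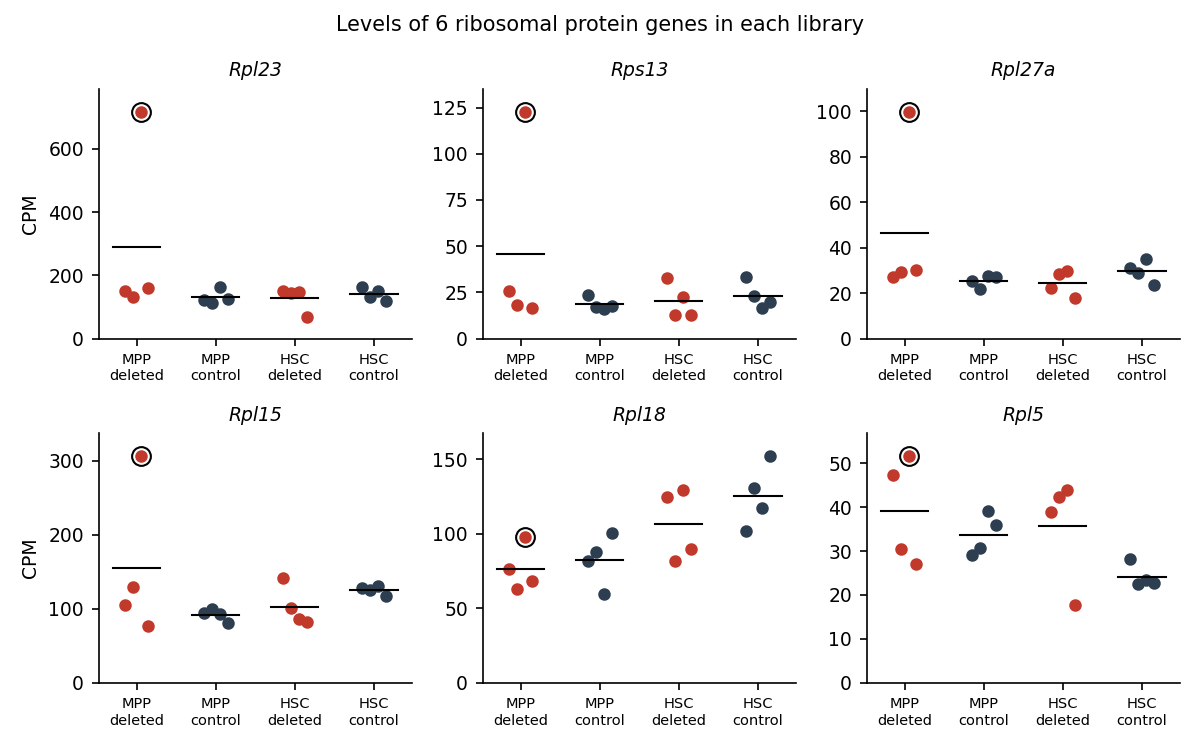
CPM of 6 ribosomal protein genes (vertical axes from 0) in MPP and HSC of deleted and control mice. Points are mice, lines are means of 4, and the ringed point is the MPP library of deleted mouse 3, at 718 CPM for Rpl23 against 132 to 161 CPM in the other deleted MPP libraries.

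MPP were compared with HSC in control mice first. The family lay lower in MPP: 79 of 86 members had a negative log2 fold change and 7 a positive one, with a median of -0.30, where the median of all genes tested was -0.01. With edgeR's quasi-likelihood test and p-values adjusted over all genes by Benjamini-Hochberg, 5 of the 86 fell and 0 rose. Of all genes 8.84% were called, 4.78% as lower and 4.06% as higher. In this fit, which does not pair the libraries of a mouse, the count of members that fell is near the background. With the mouse as a block 21 of 86 fell, beside 8.07% of all genes. Without the block an unadjusted p under 0.05 was reached by 27.9% of members, against 21.9% of all genes. DESeq2 called 9 members, all lower in MPP and among them the same 5, where it called 11.6% of all genes and 6.09% as lower. The median was -0.29 over the 46 large-subunit genes and -0.34 over the 31 small-subunit genes, and the 3 stalk genes lay between -0.40 and -0.29. All 9 of the copies and paralogues that were tested were lower.

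Rps4l (chromosome 6, 148354656 to 148355596) was at 15.9, 12.8, 13.1 and 15.8 CPM in MPP, against 23.1, 31.6, 24.6 and 40.4 CPM in HSC of control mice 1 to 4. The groups did not overlap, and the log2 fold change was -1.04 ± 0.21 (SE, edgeR adjusted p = 0.00762).

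Rpl15, a large-subunit gene mutated in some human Diamond-Blackfan families (chromosome 14, 18267823 to 18270986), was at 93.8, 99.3, 92.2 and 80.3 CPM in MPP, against 128, 125, 130 and 117 CPM in HSC, with a log2 fold change of -0.45 ± 0.12 (edgeR adjusted p = 0.0282). Rpl29 (chromosome 9, 106428889 to 106431568) was at 49.0, 64.9, 40.3 and 60.8 CPM in MPP, against 74.0, 88.8, 75.3 and 107 CPM in HSC, with -0.68 ± 0.18 (0.0317). Rpl18 (chromosome 7, 45715467 to 45720835) was at 82.0, 88.0, 59.7 and 100.2 CPM in MPP, against 101, 130, 117 and 152 CPM in HSC, with -0.60 ± 0.17 (0.0485). For each of the 3 the highest MPP value stayed under the lowest HSC value.

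Rpl5, the 5S RNA partner that signals to Mdm2, had the largest positive value. It was at 29.1, 30.7, 39.2 and 35.9 CPM in MPP, against 28.2, 22.4, 23.4 and 22.7 CPM in HSC, with 0.48 ± 0.17 (edgeR adjusted p = 0.103), so it did not pass although the groups did not overlap. Rpl35a (0.21 ± 0.20) and Rps15a (0.10 ± 0.14) came next among the positive values. Of Rpl5's windows 92.2% occur in other genes.

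**Figure D4:**
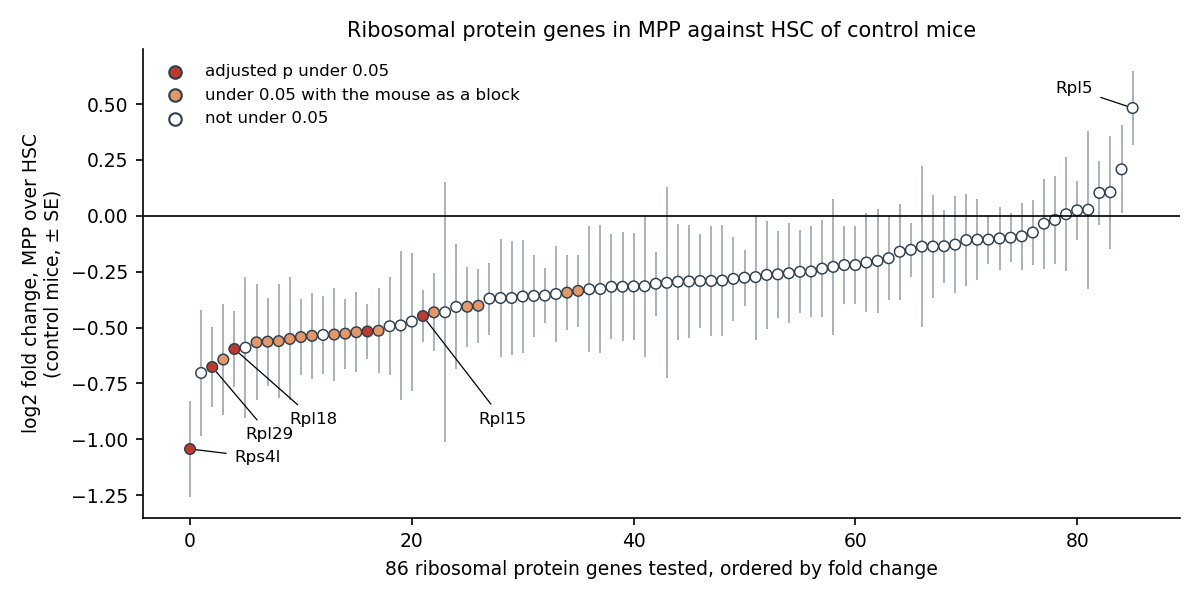
log2 fold change of MPP over HSC in control mice with its SE (vertical axis) for the 86 members tested, ordered by value. Filled red points passed the adjusted threshold, orange ones passed only with the mouse as a block, and 79 of the 86 lie below 0.

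MPP and HSC came from the same mice, and the fit with the mouse as a block called 21 of 86 members, all lower in MPP, against a background of 8.07% of all genes. Rps15, Rpl36al, Rpl8 and Rpsa were among those added. Rps15, a small-subunit protein, was at 156, 180, 115 and 228 CPM in MPP, against 227, 268, 197 and 298 CPM in HSC (log2 fold change -0.56 ± 0.09 with the block, edgeR adjusted p = 0.0034). Of the 84 members at 10 CPM, MPP was below HSC in 61, 79, 75 and 69 in mice 1 to 4, and in all 4 mice for 48 members, where 20.7% of all genes were lower in all 4. In the fit without the block the count of called members rested on single libraries. It was 1 (Rps4l) without MPP mouse 1, MPP mouse 3 or HSC mouse 2, 2 without HSC mouse 4, and 4 or 5 without any other, and Rps4l passed in all 8 of these fits. Rpl29 passed in 4 of 8 fits and was lost without MPP mouse 1 or 3 or HSC mouse 2 or 4. Rpl15 passed in 2 of 8, without MPP mouse 2 or HSC mouse 4, and Rpl18 in 2 of 8, without HSC mouse 1 or MPP mouse 4. Over these fits the log2 fold change stayed between -0.78 and -0.55 for Rpl29, -0.49 and -0.39 for Rpl15, and -0.70 and -0.46 for Rpl18. The median was -0.16 without MPP mouse 3, whose members were mostly the lowest, and between -0.39 and -0.21 without any other.

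The same comparison in deleted mice gave 0 of 86 members in edgeR, with 1 at an unadjusted p under 0.05, where 1.41% of all genes were called. DESeq2 also called 0 members (6.23% of all genes). The median was -0.11, with 35 members higher and 51 lower in MPP, and -0.30, with 72 of 87 lower, without MPP mouse 3. It was 0.01 without HSC mouse 1, 0.03 without HSC mouse 3 and 0.02 without MPP mouse 4, and -0.23 without HSC mouse 4 and -0.05 without MPP mouse 2. Rps4l had -0.69 ± 0.38 (edgeR adjusted p = 0.433), Rpl18 -0.48 ± 0.23 (0.374), Rpl29 -0.54 ± 0.31 (0.457) and Rpl15 0.59 ± 0.39 (0.533). Rpl15 was at 105, 130, 306 and 77.2 CPM in MPP, against 141, 101, 86.7 and 81.4 CPM in HSC of deleted mice, and without MPP mouse 3 its value was 0.02 ± 0.25. The median standard error of a member was 0.34 here and 0.21 in control mice.

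No member passed the threshold for deletion of Phf6 in HSC, MPP or HPC-1. Phf6 encodes a plant homeodomain protein found in chromatin and in the nucleolus, where ribosomes are assembled, and the comparison asks whether the ribosomal protein mRNAs change with its loss. In HSC edgeR called 0 of 86 members (0 at an unadjusted p under 0.05), where 0.0073% of all genes were called, and DESeq2 called 0 members (0.12% of all genes). The median log2 fold change was -0.16 with 16 members higher and 70 lower in deleted HSC, beside 0.01 for all genes. It was -0.03 without deleted mouse 4, -0.05 without deleted mouse 2, -0.07 without control mouse 4 and -0.29 without deleted mouse 3.

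The member with the lowest p in HSC was Rpl5, at 38.9, 42.2, 44.0 and 17.8 CPM in deleted mice 1 to 4, against 28.2, 22.4, 23.4 and 22.7 CPM in control mice. Of the deleted libraries 3 lay above all controls and mouse 4 below them, with a log2 fold change of 0.57 ± 0.29 (edgeR adjusted p = 0.998). Without deleted mouse 4 it was 0.78 ± 0.20 (0.502). Rps29, a zinc-binding small-subunit protein, was at 24.1, 13.0, 22.4 and 7.12 CPM in deleted HSC, against 40.7, 24.4, 16.2 and 33.6 CPM in control HSC, with -0.78 ± 0.40 (0.998). Rpl36 had -0.56 ± 0.30 and Rps27rt -0.51 ± 0.29, while Rpl17 had 0.42 ± 0.28 and Rps12 0.46 ± 0.47, all with an edgeR adjusted p of 0.998. Rps19, the gene most often mutated in Diamond-Blackfan anaemia, averaged 181 ± 75.3 CPM in deleted and 204 ± 46.8 CPM in control HSC (SD, n = 4 each). Rpl11, the partner of Rpl5, was at 15.4, 14.3, 14.7 and 11.8 CPM in deleted HSC, against 17.5, 18.1, 18.5 and 18.2 CPM in control HSC. These 2 groups did not overlap, yet the log2 fold change of -0.36 ± 0.24 did not pass (edgeR adjusted p = 0.998). Rps19 and Rpl11 were chosen after their values were seen.

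In MPP edgeR called 0 of 86 members (3 at an unadjusted p under 0.05), where 0.029% of all genes were called, and DESeq2 called 0 members (0.632% of all genes). The median was 0.05, with 52 members higher and 34 lower in deleted MPP, beside 0.02 for all genes. When libraries were scaled by their totals alone it turned to -0.08, and the median of all genes also moved, to -0.07. The members' median turned to -0.15, with 63 of 86 lower, without deleted mouse 3, and to -0.09 without control mouse 3. Without any other library it was 0.04 to 0.15. The 3 members with the lowest p were those given above for deleted mouse 3: Rpl23 at 1.14 ± 0.49 (edgeR adjusted p = 0.611), Rps13 at 1.30 ± 0.58 (0.611) and Rpl27a at 0.87 ± 0.40 (0.617). Without that mouse Rpl23 was at 0.18 ± 0.15, Rps13 at 0.14 ± 0.23 and Rpl27a at 0.19 ± 0.17, and 0 members had an unadjusted p under 0.05. On the lower side Rpl39 (-1.14 ± 0.62), Rpl7l1 (-0.22 ± 0.16) and Rpl13 (-0.35 ± 0.27) had the lowest p. Rpl39 had 7 to 18 counts per library in deleted and 14 to 30 in control MPP.

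In HPC-1 edgeR called 0 of 87 members (1 at an unadjusted p under 0.05), where 0.0647% of all genes were called, and DESeq2 called 0 members (0.442% of all genes). The median was -0.03, with 29 members higher and 58 lower in deleted HPC-1, and it was 0.02 without deleted mouse 2, 0.05 without control mouse 4 and -0.07 to -0.04 without any other. Rpl7l1 was at 152, 153, 142 and 132 CPM in deleted HPC-1, against 151, 172, 176 and 171 CPM in control HPC-1. The groups overlapped at control mouse 1, and the log2 fold change was -0.21 ± 0.09 (edgeR adjusted p = 0.878). Rps27 had -0.44 ± 0.22 (0.988) and Rpl26 -0.20 ± 0.12 (0.999), while Rps18 had 0.14 ± 0.08, Rps23rg1 0.23 ± 0.19 and Rps10 0.13 ± 0.11, each with an edgeR adjusted p of 0.999. Precision was highest in this population: the median standard error of a member was 0.13, against 0.27 in HSC and 0.26 in MPP.

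**Figure D5:**
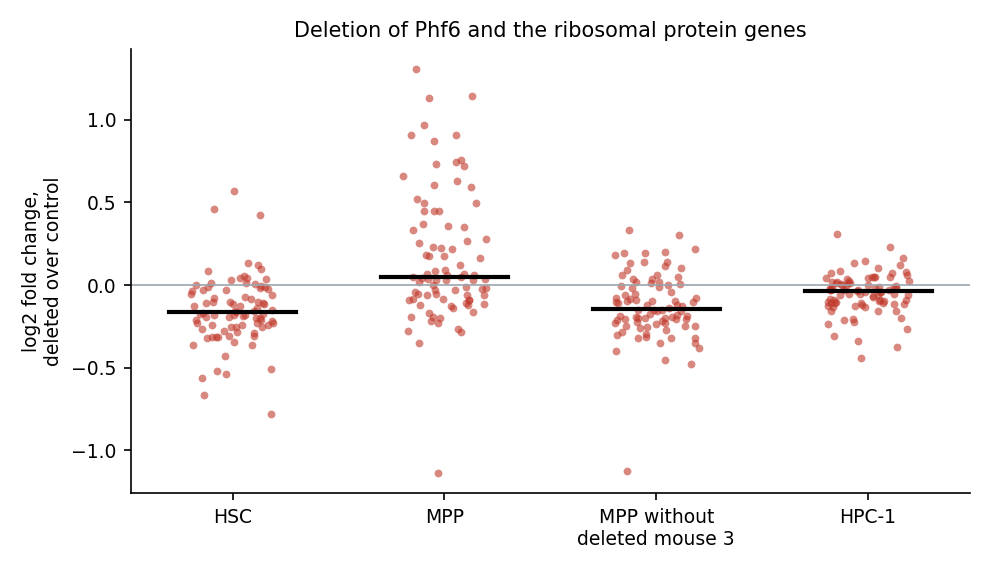
log2 fold change of deleted over control (vertical axis) for the members tested in HSC, in MPP, in MPP without the library of deleted mouse 3, and in HPC-1. Points are genes and bars are medians, at -0.16, 0.05, -0.15 and -0.03.

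The difference in the deletion effect between 2 populations was tested as an interaction term, for which edgeR called 0 genes of any kind (0.0%). For MPP minus HSC the members had a median difference of 0.25, with 70 of 87 positive. With scaling by library totals it was 0.12, with 59 of 87 positive, while the median of all genes moved from 0.02 to -0.07. The members' median was 0.01 without MPP deleted mouse 3, or between 0.11 and 0.40 without any other library. The lowest p belonged to Rps29 (1.92 ± 0.72, edgeR adjusted p = 1.00), Rpl15 (1.04 ± 0.43) and Rpl27a (1.14 ± 0.49), and 4 members had an unadjusted p under 0.05, or 0 without that mouse. For HPC-1 minus HSC the median was 0.13 (1 member under 0.05, the sparsely counted Rpl3l), and 0.0073 without HSC deleted mouse 4, or between 0.03 and 0.29 without any other library. For HPC-1 minus MPP it was -0.08 (4 members). With scaling by library totals it turned to 0.06, while the median of all genes moved from -0.03 to 0.07. The members' median turned to 0.10 without MPP deleted mouse 3, to 0.03 without MPP control mouse 3 and to 0.0072 without HPC-1 control mouse 4. DESeq2 called 2 genes for MPP minus HSC (0.0105%), 12 for HPC-1 minus HSC (0.0634%) and 7 for HPC-1 minus MPP (0.036%), and 0 members in each. These 3 tests share libraries with the comparisons above.

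Related genes were read from lists chosen for this pathway, as counts and medians. The 20 other TOP mRNAs in the table, such as translation factors, were lower in MPP than in HSC of control mice in 18 cases, with a median of -0.20. In edgeR 0 passed (5 at an unadjusted p under 0.05), DESeq2 called 2, Eef1d and Rack1, and the fit with the mouse as a block called 4, Btf3, Eef1d, Npm1 and Rack1, all lower in MPP. Their lowest p was that of the elongation factor gene Eef1d (-0.39 ± 0.13, edgeR adjusted p = 0.0811). Of the mitochondrial ribosomal proteins, which build the separate ribosome of mitochondria, 65 of 77 were lower in MPP with a median of -0.23. In edgeR 0 passed (18 at an unadjusted p under 0.05, with Mrps16 at -0.56 ± 0.17 and an adjusted p of 0.0609), DESeq2 called 2, Mrps16 and Mrpl30, and the block fit called 10, all lower in MPP, beside 8.07% of all genes. Of 20 ribosomal protein genes mutated in Diamond-Blackfan anaemia, 16 were lower and 2 fell, Rpl15 and Rpl18, beside 4.78% of all genes that fell. DESeq2 called the same 2, and the block fit called 4, all lower in MPP. Of 10 p53 targets, 6 were higher and 4 lower in MPP of control mice, with a median of 0.40. In edgeR 2 rose, Sesn2, a stress-induced inhibitor of mTORC1 signalling (0.96 ± 0.26, edgeR adjusted p = 0.0388), and Trp53inp1 (0.64 ± 0.18, 0.0447), beside 4.06% of all genes that rose. DESeq2 called these 2 and Bbc3 as higher, beside 5.56% of all genes, and the block fit these 2 and Ccng1, beside 7.39%. Sesn2 passed in 3 of 8 fits that left out 1 library (0.81 to 1.12, not without HSC mouse 1 or 4 or MPP mouse 2, 3 or 4) and Trp53inp1 in 2 of 8 (0.52 to 0.79, not without MPP mouse 1, 2 or 3 or HSC mouse 1, 2 or 4). Of 18 regulators of this mRNA class and ribosomal protein chaperones, Larp1 and Mtor included, 0 passed in edgeR (2 at an unadjusted p under 0.05) and in DESeq2, and the median was -0.08. Among the 11 relatives left out by symbol that were tested, Rps6ka6, a kinase gene, fell in MPP (-1.09 ± 0.26, edgeR adjusted p = 0.0203) and passed in 4 of 8 fits, not without HSC mouse 2 or 3 or MPP mouse 2 or 3. With the block 1 of the 11 was called higher and 1 lower. In deleted mice 61 of 77 mitochondrial ribosomal protein genes were lower in MPP, with a median of -0.28. The other TOP mRNAs had 10 of 20 lower and a median of 0.03, and edgeR called 0 of either list. With scaling by library totals these medians were -0.33 and -0.07. DESeq2 called 2 p53 targets higher in MPP of deleted mice, Ei24 and Trp53inp1.

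For the deletion, edgeR called 0 genes of these lists in HSC, MPP and HPC-1, and DESeq2 called 0 of the TOP, mitochondrial, regulator, Diamond-Blackfan and p53 lists. At an unadjusted p under 0.05 there were 1 gene in HSC and 1 in HPC-1 among the relatives left out by symbol, 3 regulators and 1 p53 target in MPP and 1 regulator in HPC-1. In deleted HSC the other TOP mRNAs had a median of -0.05 and the mitochondrial ribosomal proteins 0.07, with 52 of 77 higher. In deleted MPP the TOP list had 0.19 and the mitochondrial list 0.03. With scaling by library totals the TOP list had 0.07 and the mitochondrial list turned to -0.09, while the median of all genes moved from 0.02 to -0.07. In deleted HPC-1 the TOP list had 0.02 and the mitochondrial list -0.0017. The p53 targets had medians of -0.18 in deleted HSC, -0.31 in deleted MPP and 0.0020 in deleted HPC-1, the last turning to -0.0015 with scaling by library totals. Myc, a transcription factor that drives ribosome production, was at -0.70 ± 0.22 in deleted MPP (edgeR adjusted p = 0.544, unadjusted 0.00863) and did not pass.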

How the data were processed

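RNA was sequenced from sorted HSC and MPP (SMART-Seq) and HPC-1 (TruSeq), as 80-base pairs per the labels' protocols. The authors deposited raw counts per gene identifier in 1 table, and the submitters' processing notes name bcl2fastq, featureCounts and mm10. Neither the aligner nor the annotation, strand setting or treatment of multiply mapping reads is stated there, so overlapping genes, antisense genes and near-identical copies are uncertain.

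Identifiers were named from RefSeq (25275) and GENCODE vM21 (18), and 1886 stayed unnamed. Total counts were 9658167 to 27786830 per library, and Wilson 95% intervals cover counting error only. Groups come from the labels, and no library was left out. edgeR 4.0.16 in R 4.3.3 (filterByExpr with a minimum count of 10 and total of 15, TMM, robust quasi-likelihood test) was fitted on all genes of each comparison, with Benjamini-Hochberg adjustment and a threshold of 0.05. SE is an approximate standard error, the size of the log2 fold change divided by the square root of the test's F statistic. Alternatives were DESeq2 1.42.0, DESeq2 size factors, library totals alone, scaling without the members, no filter, each library left out, and a replicate block. The replicate number marks a shared litter between deleted and control mice and the same mouse between populations, per the labels. Deviations of same-numbered libraries correlated at 0.01 to 0.06 in HSC, 0 to 0.15 in MPP, 0.08 to 0.38 in HPC-1 and 0.15 to 0.32 between MPP and HSC of control mice. On simulated counts edgeR recovered 28.9% of genes changed by 1 log2 unit and 76.5% of those changed by 2 for deletion in MPP (13601 genes), and 61.9% and 87.8% for MPP against HSC (13412 genes). For the deletion effect in HPC-1 minus HSC it recovered 13.5% and 58.2%. Of the genes edgeR called, 5.5%, 9.88% and 5.41% were unchanged ones, in that order of comparisons. Among the DESeq2 calls 21.6%, 21.3% and 20.3% were unchanged ones, a larger false share than in edgeR.

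Named members are those called, up to 12 in each direction, filled to 3 by the lowest p, the 5 highest and 5 lowest per kb, all copies and paralogues, and members that failed the filter. Some items that this rule names are not reported here. The members and lists were chosen with earlier results of these data known. Promoter windows are from RefSeq (GRCm38.p6).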

Additional observations from a re-analysis of the deposited data

Results flagged for a closer look

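Single libraries that lay far from the other 3 of their group were looked for in 102 groups of 4, over 16 members and the summed share, and 11 values stood apart by Dixon's ratio. Chance alone flags about 1 in 20 independent groups, but that rate does not carry over here, since some of these members were named for values in the same libraries and all groups share libraries. In MPP of deleted mouse 3, Rpl23 was at 717.7 CPM (132.0 to 160.6 CPM in the other deleted MPP libraries), Rps13 at 122.8 CPM (16.66 to 25.9 CPM), Rpl27a at 99.91 CPM (27.03 to 30.14 CPM) and Rpl22l1 at 243.4 CPM (89.93 to 110.5 CPM).

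In control mouse 4, the HPC-1 library had a summed share of 2.364% (2.013% to 2.033% in the other control HPC-1 libraries) and Rpl22l1 at 65.14 CPM (44.39 to 46.26 CPM). In control mouse 1, Rpl22l1 was at 197.1 CPM in HSC (60.6 to 74.4 CPM in the others), and Rpl5 was at 28.17 CPM in HSC (22.4 to 23.39 CPM) and 21.31 CPM in HPC-1 (32.87 to 34.89 CPM). Rpl23 was at 67.7 CPM in HSC of deleted mouse 4 (144.6 to 151.0 CPM in the other deleted HSC libraries). Rps27rt was at 62.03 CPM in MPP of control mouse 3 (109.2 to 112.5 CPM in the other control MPP libraries).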

How the results depend on the processing

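Members called for deletion stayed at 0 in HSC, MPP and HPC-1, and in the 3 interaction tests, under each alternative run. For MPP against HSC in control mice 5 members were called, 9 with DESeq2, 21 with the replicate block and 1 to 5 with 1 library left out. Rpl18 missed the threshold with library totals alone (-0.58, edgeR adjusted p = 0.0644) and with no filter (-0.58, 0.054).

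Over all genes, deletion called 1 gene in HSC (19 with DESeq2, 0 with the replicate block, 0 to 1 with 1 library left out), 4 in MPP (105 with DESeq2, 2 to 22) and 9 in HPC-1 (76 with DESeq2, 20 with no filter, 60 with the block, 1 to 11). MPP against HSC called 1205 genes in control mice (2109 with the block) and 196 in deleted mice (953 with DESeq2, 55 to 208). The interactions called 0, and DESeq2 called 2 for MPP minus HSC, 12 for HPC-1 minus HSC (0 to 1 in edgeR with 1 library left out) and 7 for HPC-1 minus MPP. The block changed no other call of a member, and its calls in the related lists stand beside those lists. The median over members for deletion in HPC-1 was -0.069 to 0.054 with 1 library left out. Why these values moved was not tested. A median standard error of 0.267 in HSC (0.274 over all genes) limits what differences could be seen. Whether shared sequence also hid differences was not tested.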
